A study of Mus musculus with 21 samples.

Results

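In *Ebf1*-deficient LPs, 1941 of the 6077 reproducible Cbfa2t3 peaks lay in introns and shared no base with any of the 5898 reproducible Zbtb1 peaks. These intronic peaks bound by Cbfa2t3 alone were chosen by measured values, namely the presence of a Cbfa2t3 peak in a list and the absence of an overlapping Zbtb1 peak, so that their binding is described here and not tested. Of all 2508 intronic Cbfa2t3 peaks, the other 567 shared at least 1 base with a Zbtb1 peak. A further 1832 Cbfa2t3 peaks were intergenic and also free of Zbtb1.

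LPs are a mouse lymphoid progenitor line of C57BL6/J origin that lacks functional Ebf1, a factor needed for B cell commitment, and they grow on OP9 stromal cells with SCF, IL-7 and Flt3L, each at 10 ng/ml. For ChIP-seq, LPs that had received no Notch stimulation were fixed with disuccinimidyl glutarate and formaldehyde, 2 replicates were precipitated for each factor with a mixture of antibodies, and 2 input samples served as controls. For QuantSeq, a method that sequences mRNA near its 3′ end, LPs expressing Cas9 received a pool of 2 sgRNAs against *Cbfa2t3*, *Zbtb1*, *Cbfa2t2* or *Lmo2*, or sgRNAs against luciferase (sgControl), and 3 libraries were made for each of these 5 conditions. All samples derive from 1 cell line, and the QuantSeq replicates are described in the methods as biologically independent. Each peak list pools its 2 replicates.

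Cbfa2t3, also called ETO2 or MTG16, is a corepressor of the ETO family. It does not bind DNA itself and is brought to chromatin by other proteins, among them basic helix-loop-helix dimers of E proteins with Tal1 or Lyl1, which recognise E-boxes and are bridged by Lmo2 and Ldb1 to further factors. In blood progenitors such complexes are often found near sites for Runx and ETS factors, and in erythroid cells next to GATA sites. Zbtb1 is a zinc finger protein of the BTB family that is needed for lymphoid development.

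The sequences below are the central 200 bp of 9 members, read on the plus strand of GRCm38 (mm10). In all but that of *Foxp1*, capitals mark every match, on either strand, to the Runx core TGTGGT or to 3 E-boxes, here numbered as E-box 1 with the letters CAGCTG, as E-box 2 with the letters CAGGTG, and as E-box 3 with the letters CAGATG. The first pair of windows shows the peaks with the highest scores that can be printed, in *Xrcc6*, which encodes the Ku70 subunit used in DNA end joining, and in *Fam163b*. Each held 3 E-boxes and 1 Runx core.
Xrcc6, chr15:82027860-82028059: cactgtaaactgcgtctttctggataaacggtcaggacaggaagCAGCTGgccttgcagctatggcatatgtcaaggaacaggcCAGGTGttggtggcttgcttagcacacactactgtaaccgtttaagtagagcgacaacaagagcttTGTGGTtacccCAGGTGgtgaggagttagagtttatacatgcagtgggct
Fam163b, chr2:27122084-27122283: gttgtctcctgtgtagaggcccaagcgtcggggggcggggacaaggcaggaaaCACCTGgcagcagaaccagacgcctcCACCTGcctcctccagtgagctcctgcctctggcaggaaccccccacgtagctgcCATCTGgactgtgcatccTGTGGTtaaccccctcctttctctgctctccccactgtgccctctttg
The next windows are the highest-scoring members in listed genes that held a motif whose share differed from that of shared intronic peaks, as given below. They lay in intron 3 of *Dntt*, which encodes terminal deoxynucleotidyl transferase, with 3 E-boxes and a Runx core, in intron 3 of *Erg*, an ETS factor gene of blood progenitors, with 3 E-boxes, and in intron 1 of *Foxp1*, a forkhead factor gene, where capitals mark the motif TGGTGGT as its reverse complement.
Dntt, chr19:41039236-41039435: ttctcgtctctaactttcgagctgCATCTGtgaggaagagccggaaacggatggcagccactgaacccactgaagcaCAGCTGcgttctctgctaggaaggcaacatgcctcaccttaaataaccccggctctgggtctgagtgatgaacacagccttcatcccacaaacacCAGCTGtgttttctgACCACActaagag
Erg, chr16:95405566-95405765: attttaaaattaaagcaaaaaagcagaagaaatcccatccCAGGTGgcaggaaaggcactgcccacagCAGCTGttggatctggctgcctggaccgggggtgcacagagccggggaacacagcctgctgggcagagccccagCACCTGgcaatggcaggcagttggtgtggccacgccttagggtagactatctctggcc
Foxp1, chr6:99368079-99368278: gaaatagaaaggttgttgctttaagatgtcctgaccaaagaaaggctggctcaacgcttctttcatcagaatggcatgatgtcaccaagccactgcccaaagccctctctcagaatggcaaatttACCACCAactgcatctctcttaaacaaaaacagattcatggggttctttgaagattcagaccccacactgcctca
The last windows come from genes whose mRNA differed between the libraries labelled sgCbfa2t3 and sgControl. That in intron 1 of *Cbfa2t3* itself held 4 E-boxes and no Runx core, that in intron 2 of *Prkch* 4 E-boxes and 2 Runx cores, that in intron 1 of *Cd7* 1 E-box and 1 Runx core, and that in intron 2 of *Cdh1* a Runx core and no E-box.
Cbfa2t3, chr8:122651530-122651729: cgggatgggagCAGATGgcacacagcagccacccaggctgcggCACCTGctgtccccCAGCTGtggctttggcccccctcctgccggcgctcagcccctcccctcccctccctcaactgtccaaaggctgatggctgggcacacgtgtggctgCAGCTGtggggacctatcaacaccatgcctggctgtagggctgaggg
Prkch, chr12:73673866-73674065: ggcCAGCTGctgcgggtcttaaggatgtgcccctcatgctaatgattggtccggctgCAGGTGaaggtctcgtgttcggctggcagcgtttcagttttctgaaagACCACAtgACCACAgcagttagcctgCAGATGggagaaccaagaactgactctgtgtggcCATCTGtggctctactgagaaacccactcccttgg
Cd7, chr11:121038948-121039147: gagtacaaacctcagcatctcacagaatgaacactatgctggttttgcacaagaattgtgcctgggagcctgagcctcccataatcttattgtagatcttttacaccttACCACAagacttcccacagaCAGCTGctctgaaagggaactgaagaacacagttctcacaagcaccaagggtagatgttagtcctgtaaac
Cdh1, chr8:106643199-106643398: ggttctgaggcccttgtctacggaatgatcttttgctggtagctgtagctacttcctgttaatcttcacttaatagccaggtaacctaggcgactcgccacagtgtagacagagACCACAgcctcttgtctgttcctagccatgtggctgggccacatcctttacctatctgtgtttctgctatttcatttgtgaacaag

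The peak score, the normalised height that HOMER assigns to a peak, ranged from 20.6 to 428.2 over the 1941 members, with a median of 32.0 and quartiles of 24.8 and 48.1. The score was below 30 for 875 members (45.1%). For comparison, the median was 41.3 for the intronic peaks shared with Zbtb1 and 33.0 for the intergenic peaks without Zbtb1. The focus ratio, a fraction that HOMER reports for each peak, had a median of 0.825 over the members. The lists hold no read depth or replicate values, so the error of a single score is unknown.

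The nearest Zbtb1 peak lay a median of 40153 bp from a member, with quartiles of 12745 and 113044 bp. It was less than 10 kb away for 413 members (21.3%) and less than 1 kb away for 69 (3.55%). Close to the limit of the rule, the nearest Zbtb1 peaks were 4, 5 and 8 bp from a member, while the smallest overlaps among the shared intronic peaks were 4, 12 and 15 bases.

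Intron 1 held 777 members (40.0%), intron 2 held 338 (17.4%), and introns 5 or later held 514 (26.5%), up to intron 66. Among the shared intronic peaks, 219 of 567 (38.6%) lay in intron 1, a difference of 1.41 percentage points with a 95% interval of -3.16 to 5.97 (Fisher's exact test, two-sided, p = 0.559). Members were often far from promoters. The nearest annotated start site was a median of 15962 bp away, 1248 members (64.3%) were more than 10 kb from it, and 335 (17.3%) more than 50 kb. The gene whose intron held a peak is here called the host gene. It had the symbol of the nearest gene by start site for 1326 of the 1825 members where the latter was named. An older symbol of the same gene, such as *Sept9* for *Septin9*, counted as different.

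The 15 highest-scoring members had scores from 223.1 to 428.2. All 15 held at least 1 of the 3 E-boxes, as did 84.4% of all members, and 7 held a Runx core, as did 43.1% of all members. The highest was the peak in intron 7 of *Xrcc6* (score 428.2, chr15:82027771-82028149). It was followed by intron 1 of *Serinc3*, a serine incorporator gene (403.3), intron 1 of *Cxxc5*, a CXXC zinc finger gene (379.2), intron 1 of *Fam163b* (338.0) and intron 4 of the tubulin ligase gene *Ttll11* (331.3). Next came intron 30 of *Cdh23*, a cadherin gene (299.8), where a Zbtb1 peak was 472 bp away, and then *Ppcdc* (263.8), the cyclin D3 gene *Ccnd3* (252.8) and the fatty acid desaturase gene *Fads2* (252.5). The remaining 6 lay in *Clec16a*, *Prex1*, *Naxd*, *Camk2b*, *Mtss1* and *Cerk*, with scores from 223.1 to 232.2. The peak in *Clec16a* had *Socs1*, a suppressor of cytokine signalling, as its nearest gene, with a start site 116892 bp away.

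High scores also occurred in host genes whose mRNA was at or near 0 at this depth. *Fam163b*, *Ttll11* and *Cdh23* had 0 TPM in at least 2 of 3 sgControl libraries and at most 0.586 TPM in the other, below the 1.74 to 1.76 TPM that 3 reads were worth there. In contrast, *Serinc3* had 962.9, 864.1 and 884.2 TPM and *Ccnd3* had 569.7, 448.6 and 455.0 TPM. The libraries labelled sgCbfa2t3 overlapped those of sgControl for both genes.

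E-box 1 and E-box 2 were the most common of the 10 sequence motifs searched in the central 200 bp, on both strands, followed by the Runx core. E-box 1 was found in 997 members (51.4%, 95% Wilson interval 49.1% to 53.6%), E-box 2 in 901 (46.4%) and E-box 3 in 672 (34.6%). At least 1 of the 3 was present in 1638 members (84.4%), and 2 or more matches in 1053 (54.3%). In 3882 windows of the same length 5 kb to each side, which give the background, these shares were 11.3%, 15.8%, 15.9% and, for any E-box, 36.9%.

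The Runx core TGTGGT was found in 836 members (43.1%, against 16.3% of flanking windows) and the ETS motif GGAAGT in 670 (34.5%, against 12.1%). A Runx core stood together with an E-box in 671 members (34.6%), and 138 members (7.11%) had neither. An E-box that ends in TG can share those bases with a Runx core, since both are then read in 1 stretch. GATA and RBPJ motifs were less frequent than in the flanking windows. The GATA motif AGATAA was found in 125 members (6.44%, against 9.69% of flanking windows), an E-box half-site followed by GATA at the spacing of 9 bases in 39 (2.01%, against 1.91%), and the RBPJ motif TGGGAA in 262 (13.5%, against 19.0%). TGGTGGT, a motif like that of the zinc finger protein Zbtb7c, was present in 123 members (6.34%, against 4.84%), and the AP-1 motif TGANTCA in 163 (8.40%, against 6.31%). Members and flanks were not tested against each other, and a match is a run of letters in a window, not a mapped binding site.

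Compared with the 567 intronic peaks shared with Zbtb1, the members had more E-boxes and fewer Runx cores. E-box 2 was found in 46.4% of members and 27.9% of shared peaks, a difference of 18.6 percentage points (95% interval 14.2 to 22.9, two-sided Fisher's exact test, adjusted p = 7.83e-15 over the 10 motifs). For E-box 1 the shares were 51.4% and 40.0%, a difference of 11.3 points (6.72 to 15.9, Fisher's exact test, adjusted p = 7.29e-06). For the Runx core they were 43.1% and 65.4%, a difference of -22.4 points (-26.9 to -17.9, Fisher's exact test, adjusted p = 6.03e-20).

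Smaller differences were found for E-box 3 (34.6% and 29.1%, Fisher's exact test, adjusted p = 0.0301) and for TGGTGGT (6.34% and 9.52%, adjusted p = 0.0291 by the same test). Both missed the threshold where any Zbtb1 peak within 1 kb counted as shared (adjusted p = 0.0805 for E-box 3 and 0.0979 for TGGTGGT), whereas E-box 1, E-box 2 and the Runx core passed it there. The other 5 motifs did not pass: the intervals of the difference were -0.878 to 7.83 points for ETS, -2.99 to 1.76 for GATA, -3.29 to 3.12 for RBPJ, -0.902 to 3.94 for AP-1, and -0.781 to 1.63 for the E-box half-site with GATA. Peaks are not replicates of a condition, so these p-values compare the sequences of peaks in 2 pooled lists.

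None of the 10 motifs separated the members from the 1831 intergenic peaks without Zbtb1 on assembled chromosomes at an adjusted p under 0.05 by Fisher's exact test, and 1, E-box 2, did so at an unadjusted p (46.4% and 43.0%, p = 0.0390, adjusted p = 0.258). For the Runx core, 43.1% of members and 42.4% of intergenic peaks held a match, with an interval of the difference of -2.47 to 3.85 points. For E-box 1, the shares were 51.4% and 49.5%, with an interval of -1.31 to 5.08 points.

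**Figure D1:**
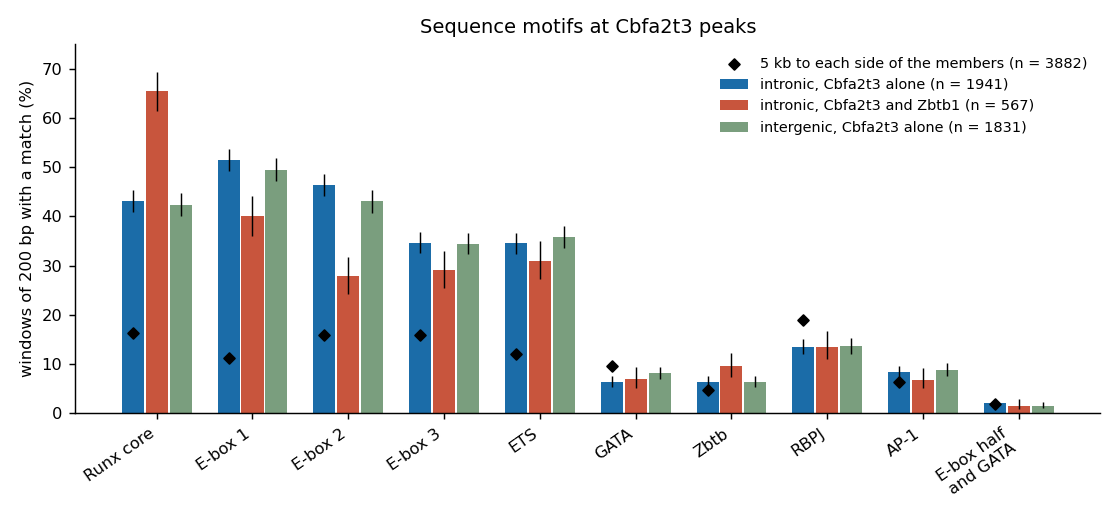
Bars give the percentage of 200 bp windows at peak centres with a match to each motif, with 95% Wilson intervals, for the 1941 members, 567 intronic peaks shared with Zbtb1 and 1831 intergenic peaks without Zbtb1, and diamonds give the percentage in windows 5 kb to each side of the members. The 3 E-boxes are numbered as in the text. The Runx core is lower in members (43.1%) than in shared peaks (65.4%), and E-box 2 is higher (46.4% and 27.9%).

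E-boxes were concentrated at the centre of the members. Within 40 bp of the centre, the 3 E-boxes together gave 12.2 matches per bp per 1000 members, compared with 2.96 at 160 to 200 bp, a ratio of 4.12. The ratio was 3.56 for the Runx core, 2.66 for ETS and 0.952 for GATA. The share of members with an E-box was also higher at higher peak scores, which is a description, since the score was part of how peaks were called. With the members in 4 score groups of nearly equal size, 76.1% of those with scores of 20.6 to 24.8 (n = 486) held an E-box, and 95.7% of those with scores of 48.2 to 428.2 (n = 485) did. E-box 1 went from 41.8% to 64.3%, E-box 2 from 39.1% to 59.0%, and E-box 3 from 29.0% to 41.9%. The Runx core was found in 42.4% of the lowest and 46.4% of the highest score group, and ETS in 34.4% and 34.2%. The median GC content of the windows was 52.5% in the lowest score group and 55% in the highest, and its part in these shares was not tested.

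**Figure D2:**
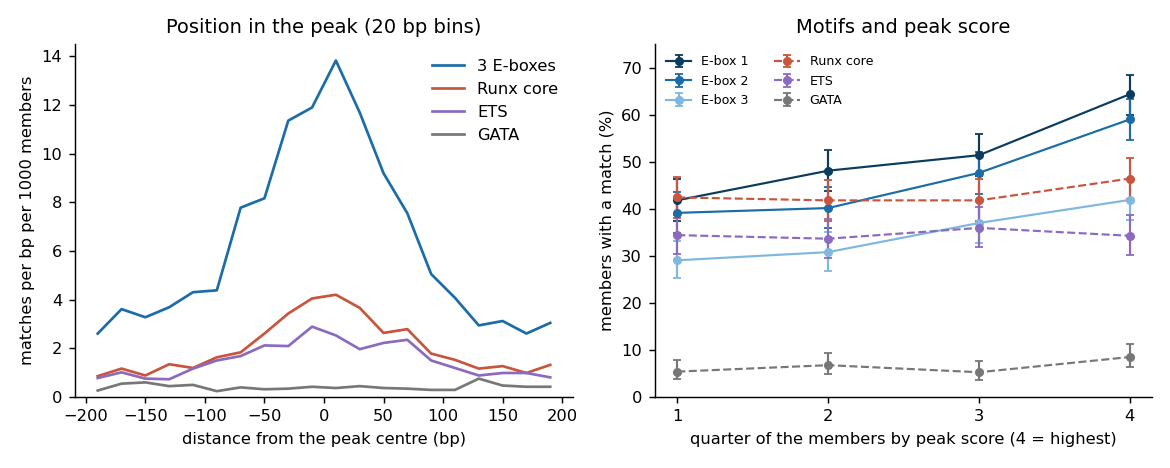
Left, matches per bp per 1000 members in 20 bp bins against the distance from the peak centre, for the 3 E-boxes together, the Runx core, ETS and GATA. Right, the percentage of members with a match, with 95% Wilson intervals, in 4 groups of members ordered by peak score: E-box 1 goes from 41.8% to 64.3%, while ETS stays between 33.6% and 35.9%.

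Annotated repeats held the centres of 234 members (12.1%), of which 107 were LTRs, 54 SINEs and 43 LINEs. The share of repeats was 11.8% among the shared intronic peaks and 19.9% among the intergenic peaks without Zbtb1. Among the members, 7 lay in copies of RLTR4_Mm, the LTR of an endogenous retrovirus, among them the peaks in *Serinc3* (403.3) and *Camk2b* (225.6). All 7 held an E-box, and their scores ran from 36.8 to 403.3 with a median of 172.9, though 6 of the 7 formed 3 pairs in 1 host gene each, in *Camk2b* (225.6 and 219.9), *AI506816* (172.9 and 172.6) and *Cep85* (37.0 and 36.8), whose central bases recur in another member. The median score was 33.3 for the 100 members in other LTRs and 32.1 for the 1707 members outside repeats.

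The 1937 members with a named host gene fell into 1378 genes, of which 1018 held 1 member, 233 held 2 and 127 held 3 or more. 201 of these genes also held an intronic peak shared with Zbtb1, which is 14.6% of the host genes of members and 42.4% of the 474 host genes of shared peaks. *Septin9*, a cytoskeletal GTPase gene, held 9 members over 95.8 kb, with scores from 22.4 to 79.9, 5 of them in intron 3. *Maml3*, a coactivator of Notch, held 8 over 393.2 kb (21.5 to 117.1). *Cbfa2t3* and *Myo1e*, an unconventional myosin gene, held 7 each. A tie for the next place left 4 genes with 6 members: the chromatin remodelling gene *Arid1b*, the forkhead gene *Foxn3*, the long noncoding RNA gene *Morrbid*, and *4933407K13Rik* on the X chromosome. In 7 of these 8 genes the windows of different members were at most 40.6% identical. The 6 windows in *4933407K13Rik*, in contrast, were 99.4% to 100% identical to each other, each with 2 E-boxes, and their scores lay between 30.9 and 39.6. The authors' alignment could keep reads that match several places, so these 6 peaks are not 6 independent observations.

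The *Cbfa2t3* gene itself (chr8:122625136-122699332, minus strand) was among the genes with most members. 6 of its 7 members lay in intron 1, at 9881, 17574, 27282, 32297, 33904 and 47702 bp from the 5′ end of the gene, with scores of 23.8, 39.8, 67.2, 59.1, 111.2 and 136.1. The other one lay in intron 7 at 62257 bp (95.5). 6 of the 7 held an E-box and 2 held a Runx core. No Zbtb1 peak lay inside the gene, and the closest to any member was 11076 bp away. An intergenic peak upstream of the gene, at -1431 bp, was higher (514.6) and overlapped a Zbtb1 peak.

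**Figure D3:**
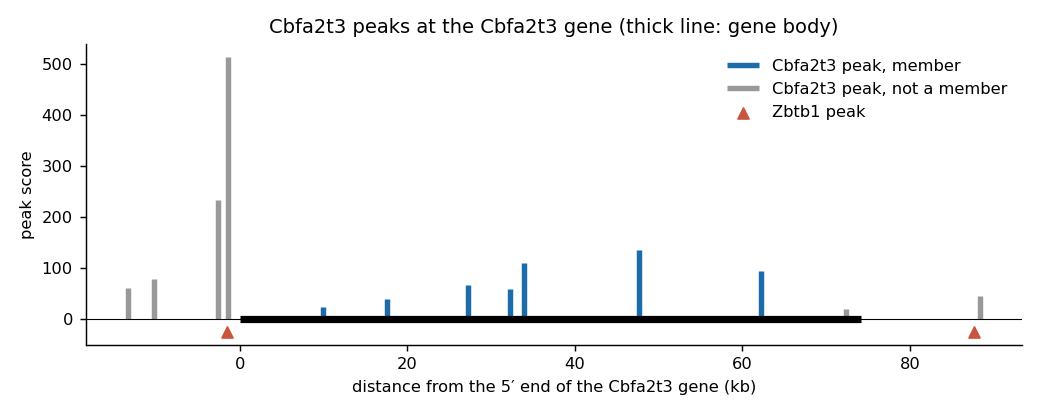
Peak scores against the distance in kb from the 5′ end of the *Cbfa2t3* gene, with the 7 members in blue, other Cbfa2t3 peaks in grey, Zbtb1 peaks as triangles below the axis, and the gene body as a thick line. The members lie between 9881 and 62257 bp and score at most 136.1, below the upstream peak (514.6) that overlaps a Zbtb1 peak.

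To relate the peaks to mRNA, host genes were looked up in QuantSeq. The libraries held 1705418 to 2095450 reads, and TPM here is a share of the reads of a library, not divided by gene length. 1373 host genes were in the table and 1084 of them passed the filter of a mean above 1 TPM over the 15 libraries. Their median level in sgControl was 33.4 TPM, and that of all 11554 genes tested 25.6 TPM. The 10 lymphoid progenitor markers summed to 1568 to 1711 TPM in sgControl and 1459 to 1644 TPM in sgCbfa2t3. In sgControl they included *Cd34* (258 ± 47.7 TPM, SD, n = 3), *Flt3* (231 ± 39.6) and *Il7r* (161 ± 11.8), while *Kit* was lower (22.3 ± 0.727) and *Rag1* (1.55 ± 0.668) and *Rag2* (2.91 ± 3.02) were near the level of 3 reads. In contrast, *Cd3e*, *Ms4a1*, *Elane* and *Col1a1*, which mark T cells, B cells, granulocytes and stroma, were at 0 in all 3. Other markers on the same lists were not. In sgControl, *Ighm* averaged 351 TPM, *Trac* 26.6, *Itgam* 9.31, *Pdgfrb* 7.19, *Pax5* 6.8 and *Mpo* 5.43 TPM. In these bulk samples, fewer cells of a type and less RNA per cell cannot be told apart. The summed level of the 7 OP9 stroma markers was 4.63 to 9.97 TPM in sgControl and 5.14 to 8.04 TPM in sgCbfa2t3. That of the 4 B cell markers was 253 to 419 TPM in sgControl, 394 to 446 TPM in sgCbfa2t3 and 189 to 228 TPM in sgZbtb1, mostly from *Ighm*, while the median log2 fold change in sgCbfa2t3 of the 2 tested was -0.56. The 14 listed B lineage genes, among them *Ebf1*, summed to 479 to 574 TPM in sgControl and 329 to 353 TPM in sgCbfa2t3, without overlap, and 1 of them passed the test as lower. The 6 mature T cell markers summed to 26.1 to 29.5 TPM in sgControl and 16.6 to 28.3 TPM in sgCbfa2t3, nearly all from *Trac* in sgControl, and to 10.5 to 20.7 TPM in sgZbtb1, below every sgControl library. Myeloid markers, 6 in all, summed to 15.05 to 17.0 TPM in sgControl and 17.7 to 21.4 TPM in sgCbfa2t3. The 20 listed myeloid and erythroid genes summed to 242 to 257 TPM in sgControl and 311 to 390 TPM in sgCbfa2t3, also without overlap, and 1 of them passed as higher. The part of these genes in the results was not tested.

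The targeted genes were checked first. *Cbfa2t3* mRNA reached 209.6, 188.7 and 172.4 TPM in sgControl and 340.5, 344.3 and 364.5 TPM in the libraries labelled sgCbfa2t3. The groups did not overlap, and the mRNA was higher by 0.88 ± 0.11 (log2, SE, limma, adjusted p = 1.67e-07). *Zbtb1* mRNA was likewise higher in the libraries labelled sgZbtb1 (94.4, 113.3 and 109.0 TPM) than in sgControl (62.7, 66.6 and 55.7 TPM), by 0.77 ± 0.16 (limma, adjusted p = 0.00102). *Cbfa2t2* read 11.03, 12.2 and 12.3 TPM in sgControl, against 25.5, 23.9 and 16.4 TPM with its own sgRNAs (limma, adjusted p = 0.412). *Lmo2* read 23.2, 16.2 and 15.8 TPM in sgControl, against 8.48, 24.4 and 15.9 TPM with its own sgRNAs (limma, adjusted p = 0.957). A 3′ tag reads mRNA and does not show whether an sgRNA ended the protein, so these levels do not check the loss of function, and directions are given for the libraries as labelled. By immunoblotting, the study reports specific loss of targeted proteins, and its figure lists blots for Lmo2, Zbtb1 and Cbfa2t3 but not for Cbfa2t2. These blots are not analysed here. The line is labelled as deficient for Ebf1, and *Ebf1* mRNA was read at 338.0, 305.0 and 365.9 TPM in sgControl.

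In the libraries labelled sgCbfa2t3, 13 of the 1084 host genes tested (1.2%) had an adjusted p under 0.05 by limma, compared with 62 of all 11554 genes (0.537%). 12 of the 13 fell (1.11%, against 0.407% of all genes) and 1, *Cbfa2t3*, rose (0.0923%, against 0.13%). At an unadjusted p under 0.05 there were 151 host genes (13.9%) and 1224 of all genes (10.6%). The median log2 fold change was -0.08 for host genes and -0.01 for all genes. These counts are descriptions. In 2 other classes of gene the counts were 7 of 380 host genes of the shared intronic peaks (1.84%) and 11 of 725 genes nearest to the intergenic peaks without Zbtb1 (1.52%), and the shares were not tested against each other. By the thresholds used for differentially expressed genes (DEGs: unadjusted p under 0.05, a log2 fold change beyond 1 and more than 10 TPM on average in either group), 12 host genes passed, against a background of 0.658%, and 3 of these, *Cd7*, *Cdh1* and *Vps50*, were also among the 13. The other 8 that were lower, *Eepd1*, *Vcan*, *Ppp1r37*, *Tnfsf11*, *Ldlrad4*, *Traf3ip1*, *Zswim6* and *Fgd3*, had log2 fold changes from -1.15 to -1.02 and adjusted p-values from 0.106 to 0.377 (limma). The only one of the 12 that was higher was *Ajap1*, named here after its values were seen, at 2.90, 10.4 and 5.86 TPM in sgControl and 10.7, 9.71 and 21.6 TPM in sgCbfa2t3. Its groups overlapped, and its adjusted p was 0.324 (limma).

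Of the genes that fell, 3 encode proteins of the cell surface known from T cells or adhesion. *Cd7*, an early T lineage surface protein gene with a member in intron 1 (score 23.7), had 9.87, 34.7 and 15.8 TPM in sgControl and 3.75, 6.28 and 2.22 TPM in sgCbfa2t3. The groups did not overlap, and the difference was -1.96 ± 0.45 (log2, SE, limma, adjusted p = 0.0180). *Cdh1*, the E-cadherin gene with a member in intron 2 (score 21.2), had 38.9, 38.8 and 36.9 TPM in sgControl and 13.9, 7.42 and 18.3 TPM in sgCbfa2t3. All sgControl libraries were higher, and the difference was -1.54 ± 0.28 (limma, adjusted p = 0.000710). *Thy1*, a glycoprotein of T cells with a member in its last intron (score 37.2), had 313.0, 332.2 and 299.6 TPM in sgControl and 207.0, 250.7 and 222.1 TPM in sgCbfa2t3. The groups were again apart, by -0.48 ± 0.11 (limma, adjusted p = 0.0140).

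A second set encodes signalling proteins. *Prkch*, protein kinase C eta, with 3 members in intron 2 (22.2, 26.8 and 50.3), had 70.8, 79.9 and 79.2 TPM in sgControl and 41.3, 45.1 and 42.6 TPM in sgCbfa2t3. The groups did not overlap, with a difference of -0.82 ± 0.17 (limma, adjusted p = 0.00447). *Pik3cd*, the delta catalytic subunit of phosphoinositide 3-kinase, with members in introns 2 and 8 (86.8 and 129.0), had 239.8, 277.8 and 249.2 TPM in sgControl and 183.4, 181.6 and 164.5 TPM in sgCbfa2t3. The difference was -0.53 ± 0.10 (limma, adjusted p = 0.00228). *Ptpn1*, a tyrosine phosphatase gene with a member in intron 1 (32.9), had 357.2, 393.0 and 444.5 TPM in sgControl and 254.1, 312.9 and 324.6 TPM in sgCbfa2t3, -0.42 ± 0.10 apart (limma, adjusted p = 0.0277). *Dock10*, a guanine nucleotide exchange factor gene (member in intron 2, 23.9), was the closest to the threshold (-0.57 ± 0.15, limma, adjusted p = 0.0498), with 116.1, 149.3 and 156.6 TPM in sgControl and 80.4, 91.9 and 111.3 TPM in sgCbfa2t3.

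Another 5 genes that fell encode proteins of various kinds. *Gria2*, a glutamate receptor subunit gene with a member in intron 2 (86.5), had 211.4, 237.9 and 255.7 TPM in sgControl and 113.7, 98.2 and 142.9 TPM in sgCbfa2t3. The groups did not overlap, and it had the lowest adjusted p of the genes that fell (-0.997 ± 0.134, limma, 1.22e-06). *Itsn1*, an endocytic scaffold gene with 5 members from intron 14 onward (29.4 to 94.7), had 95.2, 127.9 and 92.1 TPM in sgControl and 74.0, 56.0 and 71.5 TPM in sgCbfa2t3 (-0.63 ± 0.14, limma, adjusted p = 0.0162). All 3 sgControl libraries were above all 3 of sgCbfa2t3 here as well. *Gsn*, which encodes the actin-severing protein gelsolin, with a member in intron 1 (37.4), had 61.6, 82.8 and 69.2 TPM in sgControl and 47.7, 39.4 and 36.01 TPM in sgCbfa2t3 (-0.78 ± 0.18, limma, adjusted p = 0.0168). *Vps50*, a vesicle tethering gene with 2 members in intron 12 (24.3 and 33.8), had 29.6, 22.0 and 22.3 TPM and 6.43, 11.4 and 9.97 TPM (-1.34 ± 0.33, limma, adjusted p = 0.0297). The protein disulfide isomerase gene *Pdia5* (member in intron 1, 24.3) had 43.0, 40.5 and 58.6 TPM and 25.2, 24.0 and 25.5 TPM (-0.88 ± 0.22, limma, adjusted p = 0.0412). For these genes, too, every sgCbfa2t3 library was below every sgControl library. A separation of the 3 and 3 libraries, in either direction, was found for 15.8% of all genes tested and 18.5% of the host genes.

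**Figure D4:**
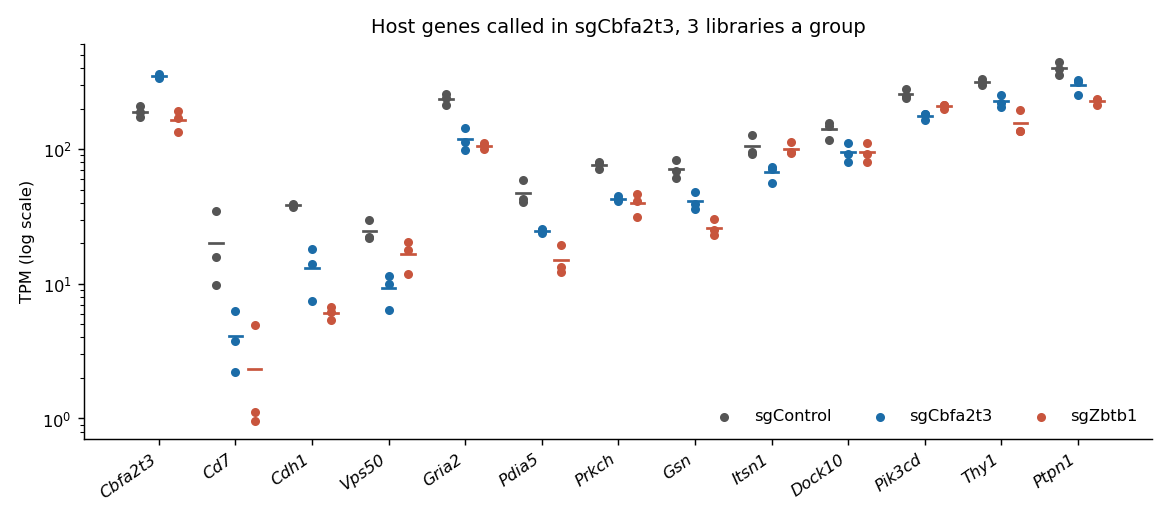
TPM on a log scale in each of 3 libraries of sgControl, sgCbfa2t3 and sgZbtb1 for the 13 host genes with an adjusted p under 0.05 in sgCbfa2t3, with a line at the mean. *Cbfa2t3* is higher in sgCbfa2t3 (340.5 to 364.5 TPM) than in sgControl (172.4 to 209.6 TPM), and for the other 12 the 3 blue points lie below the 3 grey ones.

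The calls depended on single libraries to a different extent. *Gria2*, *Cdh1* and *Cbfa2t3* kept an adjusted p under 0.05 under every alternative that gave one. Without sgControl replicate 2, 3 of the 13 host genes kept their call, and without sgControl replicate 3 or sgCbfa2t3 replicate 1, 7 did. *Prkch* and *Pik3cd* lost their call without sgControl replicate 2 alone (adjusted p = 0.0542 and 0.0680, limma). Over all 6 fits that left out 1 library, their log2 fold changes stayed between -0.87 and -0.79 for *Prkch* and between -0.58 and -0.47 for *Pik3cd*. *Thy1* lost it without sgControl replicate 2 or sgCbfa2t3 replicate 1, *Itsn1* without sgControl replicate 2 or sgCbfa2t3 replicate 2, *Ptpn1* without sgControl replicate 2 or 3 or sgCbfa2t3 replicate 1, and *Gsn*, *Cd7* and *Dock10* without any of 4 libraries. *Vps50* lost it without any of 5 libraries and *Pdia5* without any of the 6. These 8 genes also lost it when all genes above 0 in any library were tested, and *Dock10* by edgeR (adjusted p = 0.0589) and DESeq2 (0.0835). The highest adjusted p over the alternatives ranged from 0.148 to 0.327 for these 8 genes.

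Members were also found in genes of the progenitor's own regulators, whose mRNA did not pass the test in sgCbfa2t3. Of all 11554 genes tested, 1084 were host genes, and no list was tested against this number. 15 of the 35 listed progenitor transcription factor genes held 31 members, and 0 of these 15 had an adjusted p under 0.05 by limma, edgeR or DESeq2, while 3 had an unadjusted p under 0.05 by limma. Over all genes tested these shares were 0.537% and 10.6%, so a count of 0 in a list of this size is no result about it. *Foxp1* held 4 in intron 1 (37.1 to 113.7), and *Runx1*, *Erg*, *Fli1* and *Ets1* held 3 each. *Foxp1* was at 1112, 1115 and 1201 TPM in sgControl and 1024, 1051 and 1148 TPM in sgCbfa2t3 (limma, adjusted p = 0.710), and *Runx1* at 333.9, 323.5 and 302.6 TPM and 319.0, 284.9 and 255.9 TPM (adjusted p = 0.588). For *Ets1*, 18.5 to 29.3 TPM in sgControl stood against 11.4 to 21.4 TPM (adjusted p = 0.523), and for *Fli1*, 94.7, 116.3 and 131.9 TPM against 116.9, 121.0 and 104.1 TPM (adjusted p = 0.994). The groups overlapped for these 4 genes and for *Erg* (18.0, 9.84 and 16.4 TPM against 16.6, 15.99 and 12.2 TPM, adjusted p = 0.979). They did not for *Bcl11a*, a zinc finger factor gene (38.9, 57.3 and 38.1 TPM against 30.0, 28.6 and 23.3 TPM, limma, adjusted p = 0.237), and *Satb1*, a chromatin organiser gene (887.4, 838.7 and 921.8 TPM against 779.0, 773.1 and 819.8 TPM, adjusted p = 0.460), named here after their values were seen.

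Of the 19 genes listed for the Lmo2 complex, 3 held 13 members: *Cbfa2t3* 7, *Ssbp3*, a partner of Ldb1, 4, and *Tcf12*, which encodes the E protein HEB, 2. *Ssbp3* did not pass the test (261.9, 255.2 and 215.8 TPM against 232.7, 241.0 and 248.2 TPM, limma, adjusted p = 0.973). Of the 20 T lineage genes, *Cd7* and *Thy1* fell, and *Cd247* and *Dntt* held 1 member each without passing. *Dntt* was higher (71.4, 85.1 and 78.0 TPM against 131.4, 95.9 and 119.7 TPM, limma, adjusted p = 0.102). *Cd247* was lower (8.13, 5.79 and 5.28 TPM against 3.75, 1.14 and 0.553 TPM, limma, adjusted p = 0.291). The 20 genes summed to 546 to 619 TPM in sgControl and 478 to 488 TPM in sgCbfa2t3, and their part was not tested. Of the 35 genes for cytokine receptors and signalling, 14 held 24 members, and 3 of these, *Prkch*, *Pik3cd* and *Dock10*, fell, where 0.407% of all genes and 1.11% of host genes fell. In the Notch pathway 6 of 18 genes held 13 members, 8 of them in *Maml3* (85.4, 116.9 and 113.8 TPM against 77.7, 75.9 and 92.0 TPM, adjusted p = 0.452), and 0 passed by limma, edgeR or DESeq2, with 1 at an unadjusted p under 0.05. Of the 29 genes for corepressors and chromatin, 10 held 18 members, 6 of them in *Arid1b*, and 0 passed by any of the 3 tools, with 1 at an unadjusted p under 0.05. At a background of 0.537%, counts of 0 in lists of these sizes say nothing particular to them. Among the 14 B lineage genes, 4 held 6 members, 3 of them in *Ebf1* (338.0, 305.0 and 365.9 TPM against 252.5, 251.2 and 289.2 TPM, limma, adjusted p = 0.0979). None of the 20 myeloid and erythroid genes listed held a member. Of these, 7 passed the filter, and 1084 of all 11554 genes tested were host genes. A count of 0 in a list of this size is no result about it.

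In the libraries labelled sgZbtb1, 104 of the 1084 host genes had an adjusted p under 0.05 (9.59%), against 4.79% of all genes, and 43 of 380 host genes of the shared intronic peaks (11.3%). Of the 104 genes, 89 fell (8.21%, against 2.94%) and 15 rose (1.38%, against 1.85%). Without sgControl replicate 2 the count was 67. This comparison uses the same 3 sgControl libraries as that for sgCbfa2t3, so the values of each gene are given side by side and no overlap is counted. *Cd7* differed by -2.69 in sgZbtb1 and -1.96 in sgCbfa2t3 (log2), *Cdh1* by -2.47 and -1.54, *Gria2* by -1.13 and -0.997, *Thy1* by -1.03 and -0.48, and *Prkch* by -0.95 and -0.82. *Pdia5* differed by -1.60 and -0.88, *Gsn* by -1.42 and -0.78, *Ptpn1* by -0.80 and -0.42, and *Dock10* by -0.57 and -0.57, in the same order. The others did not pass in sgZbtb1. *Itsn1* differed by -0.06 there (limma, adjusted p = 0.900), *Vps50* by -0.55 (adjusted p = 0.404) and *Pik3cd* by -0.29 (adjusted p = 0.0848). *Cbfa2t3* differed by -0.21 in sgZbtb1 (limma, adjusted p = 0.326) and by 0.88 in sgCbfa2t3. In sgZbtb1 the 14 B lineage genes summed to 263 to 266 TPM, against 479 to 574 TPM in sgControl, with 3 passing as lower, and both tested B cell markers passed as lower. The part of these genes and of the T cell markers, and whether the effects of the 2 sgRNA pools differed, was not tested.

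Listed regulators with members were among the host genes that differed in sgZbtb1, and are named here after their values were seen. *Runx1*, with 3 members in intron 2, scores of at most 29.1 and a Zbtb1 peak 395 bp from the highest, was at 178.2, 186.5 and 174.8 TPM in sgZbtb1 and at 302.6 to 333.9 TPM in sgControl (-0.83 ± 0.10, limma, adjusted p = 3.28e-09). *Il2rb*, a receptor chain for interleukins, was at 19.0, 13.9 and 8.84 TPM, against 38.1 to 61.6 TPM in sgControl (-1.81 ± 0.22, limma, adjusted p = 1.16e-08). *Maml3*, with 8 members and a Zbtb1 peak 981 bp from 1 of them, was at 83.2, 68.4 and 52.0 TPM, against 85.4 to 116.9 TPM (-0.64 ± 0.17, limma, adjusted p = 0.0145). Those that rose included *Cd34*, a marker of early progenitors (361.4, 377.7 and 366.8 TPM, against 225.2 to 313.0 TPM, adjusted p = 0.00107, limma). Of the 10 lymphoid progenitor markers, 2 passed as higher in sgZbtb1 and 3 as lower. Among the latter was *Ptprc*, also a host gene (-0.28 ± 0.09, limma, adjusted p = 0.0393). The groups did not overlap for any gene named in this paragraph, as for 22.9% of all genes tested and 29.7% of host genes in sgZbtb1.

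In the libraries labelled sgCbfa2t2, 2 of the 1084 host genes passed (0.185%), against 0.147% of all genes: *Gria2* (148.5, 126.5 and 185.5 TPM, -0.62 ± 0.13, limma, adjusted p = 0.0173) and the adhesion gene *Ncam2*, both lower than in sgControl. Without either sgControl replicate 2 or 3, or sgCbfa2t2 replicate 1 or 2, the count was 0. In sgCbfa2t2 the mature T cell markers summed to 12.9 to 21.7 TPM, against 26.1 to 29.5 TPM in sgControl, and the B lineage genes to 356 to 386 TPM, against 479 to 574 TPM, with 1 passing as lower, and their part was not tested. In the libraries labelled sgLmo2, 1 host gene passed (0.0923%), against 0.0173% of all genes. This was *Irf8*, a transcription factor gene of myeloid and B cells with members in introns 2 and 6 (44.5 and 27.2), at 50.9, 58.2 and 61.9 TPM in sgLmo2 and 110.9, 120.4 and 115.5 TPM in sgControl. The groups did not overlap, and the difference was -1.01 ± 0.13 (limma, adjusted p = 1.2e-06). The 6 macrophage and granulocyte markers summed to 3.83 to 11.3 TPM in sgLmo2, below the lowest sgControl library, and the 20 myeloid and erythroid genes to 180 to 235 TPM, against 242 to 257 TPM in sgControl. The part of these genes in the result was not tested.

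**Figure D5:**
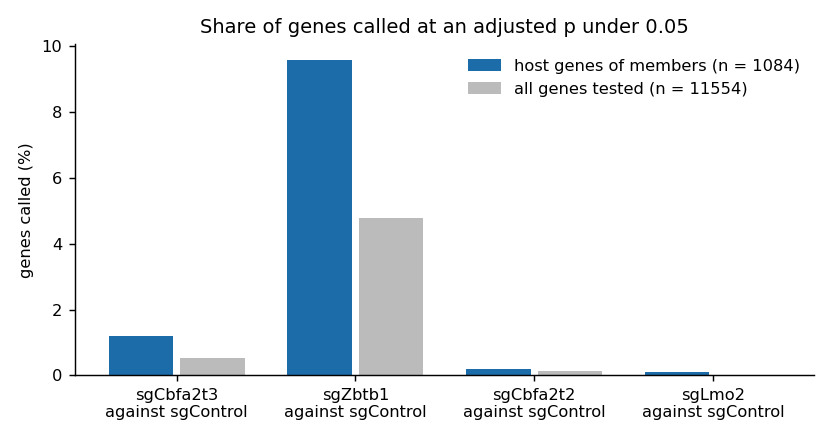
Percentage of genes with an adjusted p under 0.05 in each sgRNA pool against sgControl, for the 1084 host genes of members (blue) and all 11554 genes tested (grey). The pair of bars is at 1.2% and 0.537% for sgCbfa2t3 and at 9.59% and 4.79% for sgZbtb1.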

How the data were processed

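ChIP-seq reads of LPs were mapped by the authors to mm10 with Bowtie 1.1.1, keeping reads with several equally good places up to a limit, and peaks were called with HOMER against input and filtered for reproducibility over the 2 replicates. The authors deposited 1 list per factor, with a peak score and, as a fraction, the focus ratio. For QuantSeq, the authors trimmed reads with fastp, mapped them with STAR to mm10 and deposited values called TPM, which are CPM, since each library adds up to the same total and whole reads were recovered for 100% of values (within 0.0011 TPM or 2e-05 of the value). The counting tool is not given in the sources used here. A row without a gene name (at most 5.86e-05% of a library) was left out. The deposited means, SDs, test p-values and log2 fold changes of the authors' own comparisons were not used.

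A member is an intronic row of the Cbfa2t3 list that shares no base with a row of the Zbtb1 list. Members, gene lists, motifs and tests were chosen with earlier results of these data known. The named genes are those of the 15 highest scores, the genes with most members, up to 8 host genes that rose and 8 that fell most in sgCbfa2t3, out of those whose adjusted p was under 0.05, whose average passed 10 TPM in sgControl or sgCbfa2t3 and whose libraries were apart, listed genes with such a call or with 3 or more members, and the 4 targeted genes; other genes are named where a short count turns on them. Of the sequences, the rule for the highest scores passed over a retroviral LTR copy and a chromosome not printed here, and those from called genes were chosen after their values were seen. Host genes are those of the transcript in the annotation; 1361 were found in the QuantSeq table by symbol and 12 by an older symbol in RefSeq (GRCm38.p6), and 5 were not found. Motifs were searched in 200 bp windows of GRCm38.p6 with Python 3.11.15, pandas 2.3.3 and pysam 0.24.0, and shares were compared with two-sided Fisher's exact tests in scipy 1.17.1, with Benjamini-Hochberg adjustment over the 10 motifs (statsmodels 0.14.6).

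Genes with a mean above 1 TPM were tested with limma 3.58.1 (R 4.3.3) on log2(TPM + 1) with all 15 libraries in 1 fit and a trend of variance on mean, and adjusted over all 11554 genes; fold changes of low genes are understated on this scale. An exact permutation test of 3 libraries against 3 cannot give a p under 0.1 and was not used. Nothing in the labels says that same-numbered libraries were prepared together. The libraries held 1705418 to 2095450 reads, so that 3 reads were worth 1.43 to 1.76 TPM; this floor and the 95% intervals cover counting error only. edgeR 4.0.16 and DESeq2 1.42.0 were run on the recovered reads as alternatives. An alternative without members in annotated repeats was chosen after seeing the data. The scripts were tested on simulated data. Per-site read depth of the ChIP-seq was not analysed here.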

Additional observations from a re-analysis of the deposited data

How the results depend on the processing

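Of the results that answer a comparison, 87 settings left the direction and the call as they were, or the count within 1.5 times, while 20 moved further and 1 changed sign. With scores of at least 30 there were 1066 members. The number of motifs that separated members from shared intronic peaks went from 5 to 3 when centres within 100 bp or any Zbtb1 peak within 1 kb counted as shared, with scores of at least 30, and outside annotated repeats; E-box 1, E-box 2 and the Runx core kept their call there. The intron 1 difference was -0.511 points with the 1 kb rule. Testing all genes above 0 in any library left 5 host genes in sgCbfa2t3, 64 in sgZbtb1 and 0 in sgCbfa2t2. The nearest gene in place of the host gene left 1 in sgCbfa2t2, and only the 6 libraries compared gave 4 there. With a pseudocount of 0.1, DEGs numbered 19. Leaving out 1 library at a time gave 3 to 13 host genes in sgCbfa2t3, 67 to 99 in sgZbtb1, 0 to 3 in sgCbfa2t2 and 12 to 18 DEGs. The cause of these changes was not tested, beyond the smaller number of libraries or larger number of genes. With each group centred on its mean, the deviations of same-numbered libraries had a mean r of 0.0279 (lowest -0.0072), against -0.0139 for different numbers. The centring ties these means to each other, so they do not show whether same-numbered libraries were prepared together. That was not tested. A replicate block gave 18 host genes in sgCbfa2t3, 128 in sgZbtb1, 4 in sgCbfa2t2 and 3 in sgLmo2, each more than the main fit.

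Small motif differences changed sign, in percentage points. Against shared peaks, GATA was 0.363 with scores of at least 30, 0.329 in 100 bp and 0.397 in 400 bp windows, RBPJ was 1.66 with scores of at least 30 and 3.57 in 400 bp windows, and the E-box half-site with GATA was -0.771 in 100 bp windows. Against intergenic peaks, E-box 3 was -0.147 with centres within 100 bp and -0.101 with the 1 kb rule, E-box 1 was -0.698 outside repeats, ETS was 1.26 outside repeats, the Runx core was -0.980 with scores of at least 30 and -0.667 at 40% to 55% GC, RBPJ was 0.362 with scores of at least 30, the half-site with GATA was -0.246 in 100 bp windows, and TGGTGGT was 0.41, 0.0592, 0.745, 0.297, 1.12 and 0.636 with centres within 100 bp, the 1 kb rule, scores of at least 30, 400 bp windows, the GC range and outside repeats. Of the other single genes and motifs, 54 settings lost a call.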

Other observations

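Some members are copies of the same sequence. For 30 members (1.55%), the central 50 bases also occurred in the window of another member, on either strand. 10 of these lay in annotated LTRs and 6 in *4933407K13Rik*. Outside LTRs, the peaks in *Gpr137b*, which encodes a lysosomal membrane protein, and in its neighbour *Gpr137b-ps* had scores of 136.6 and 136.5, the 2 members in *Fam177a* both had 27.2, and the 2 in *Zfp433*, a zinc finger gene, both had 31.2. A pair of RLTR4_Mm members in *AI506816* scored 172.9 and 172.6, a pair in *Camk2b* 225.6 and 219.9, and a pair in *Cep85* 37.0 and 36.8. How reads were shared between such copies was not tested. Leaving out members in annotated repeats was tried, and leaving out these 30 was not.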
